A study of Caenorhabditis elegans with 2 samples.

Results

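Of the 3066 reproducible LIN-40 peaks on genome build ce11, 398 (13.0%) were autosomal peaks at divergent promoter pairs. These are peaks off the X chromosome whose summit, the point of highest signal, lay over 300 bp from every tRNA gene. The summit also had to lie in the promoter windows of at least 1 protein-coding gene on each strand, where the window of each annotated transcript start covered 1000 bp before it and 200 bp after it. They made up 16.9% of the 2351 autosomal peaks (exact 95% interval 15.4 to 18.5). The other autosomal peaks comprised 928 with a promoter window on 1 strand only (one-strand peaks below), 930 away from promoters and 95 within the tRNA distance.

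The data came from chromatin immunoprecipitation sequencing of whole Caenorhabditis elegans, with 2 samples of 1 group, labelled biological replicates 3 and 4. Both were hermaphrodite young adults of strain OP485, which stably expresses LIN-40 with GFP and FLAG fused to its C terminus, collected 57.25 hours after release from starvation as first-stage larvae. Chromatin was sonicated and precipitated with an antibody against GFP, and a control alignment entered the peak calls, per the deposited file listings. Every animal carried the tag, and neither an untagged group nor a second condition was analysed here. The reproducible peaks are the list that, per the labels, passed a threshold on the irreproducible discovery rate (IDR), a measure of how well ranks hold between replicates. The lists hold no read counts, so depth is unknown, and signal is the value set by the authors' caller, on a scale not given in the sources used here. In whole worms, weaker binding in each cell and binding in fewer cells cannot be told apart.

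LIN-40 belongs to the metastasis-associated (MTA) protein family, whose members are part of NuRD, an assembly that joins an ATPase able to move nucleosomes to enzymes that take acetyl groups off histones. In a divergent pair, neighbouring genes are transcribed away from each other, so that a single stretch of intergenic DNA holds both promoters. Many C. elegans messages receive a spliced leader in trans, and for these the annotated start can lie downstream of where transcription begins.

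The windows of 100 bp either side of the summit are shown for the 6 strongest members outside 1 chromosome that is not printed here, because the strongest sites are described first below and differ in the motifs counted later. Each line gives the plus-strand gene, the minus-strand gene, the coordinates on ce11 and 201 bases of the plus strand, 5′ to 3′. Capitals mark GAGAGA, CTGCGTCT and the 8-base words with a G or C that occur in at least 3 of these 6 windows, all read on both strands.
tasp-1/K01G5.10 (chrIII:10759149-10759349): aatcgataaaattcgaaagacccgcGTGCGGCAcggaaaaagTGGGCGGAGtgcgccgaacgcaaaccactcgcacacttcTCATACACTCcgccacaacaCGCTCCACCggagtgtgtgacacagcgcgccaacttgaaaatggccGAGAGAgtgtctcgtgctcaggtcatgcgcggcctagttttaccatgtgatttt
Y17G9B.5/rpl-20 (chrIV:4749965-4750165): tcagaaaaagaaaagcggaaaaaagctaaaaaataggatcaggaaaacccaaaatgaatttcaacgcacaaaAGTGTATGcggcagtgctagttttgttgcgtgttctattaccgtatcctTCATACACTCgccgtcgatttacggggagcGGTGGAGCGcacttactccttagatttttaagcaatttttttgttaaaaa
K11H12.8/rpl-15 (chrIV:654828-655028): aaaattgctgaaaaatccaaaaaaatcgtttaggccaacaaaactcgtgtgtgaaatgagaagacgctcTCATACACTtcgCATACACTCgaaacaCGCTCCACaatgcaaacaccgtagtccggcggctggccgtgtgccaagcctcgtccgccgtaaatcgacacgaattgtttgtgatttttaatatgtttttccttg
set-16/drr-2 (chrIII:13643630-13643830): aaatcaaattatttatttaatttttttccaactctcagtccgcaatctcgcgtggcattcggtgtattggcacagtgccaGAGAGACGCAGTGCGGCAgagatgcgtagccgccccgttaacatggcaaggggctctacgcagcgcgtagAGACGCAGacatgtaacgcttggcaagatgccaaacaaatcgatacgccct
tag-340/nhl-2 (chrIII:4899828-4900028): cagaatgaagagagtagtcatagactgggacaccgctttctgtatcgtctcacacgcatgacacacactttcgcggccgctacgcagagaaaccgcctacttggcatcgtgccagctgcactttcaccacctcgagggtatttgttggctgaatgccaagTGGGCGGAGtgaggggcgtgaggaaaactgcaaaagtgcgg
hsp-60/Y22D7AL.10 (chrIII:1619024-1619224): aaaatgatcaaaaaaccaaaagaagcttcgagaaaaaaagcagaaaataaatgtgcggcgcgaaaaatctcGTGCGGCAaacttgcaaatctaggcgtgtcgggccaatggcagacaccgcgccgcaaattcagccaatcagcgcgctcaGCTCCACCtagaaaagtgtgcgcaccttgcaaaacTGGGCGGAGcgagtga

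The tasp-1 and set-16 windows held 1 GAGAGA each, the set-16 window also held 2 copies of CTGCGTCT, and the other 4 windows held neither. The words in capitals were picked from these windows after their sequences were read. CATACACT occurred in the tasp-1, rpl-20 and rpl-15 windows, but in 6 of all 398 member windows (1.51%), against 10 of 928 one-strand windows (1.08%). CGCTCCAC occurred in the same 3 windows and in 26 of 398 member windows (6.53%), against 16 of 928 one-strand windows (1.72%). CTCCGCCC, which occurred in the tasp-1, nhl-2 and hsp-60 windows, was in 20 of 398 member windows (5.03%) and in 18 of 928 one-strand windows (1.94%). The words were chosen on these sites, so the counts are descriptions. G+C content was 54.7% in the tasp-1 and nhl-2 windows and 38.8% in the rpl-20 window, against quartiles of 36.3% and 44.8% over all members.

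The rule, with windows longer upstream than downstream on both strands, nearly fixes that a summit stands between starts that face away from each other, so the positions describe the members and test nothing. In 396 of the 398 peaks the nearest plus-strand and minus-strand starts faced away from each other, and in 374 of these 396 (94.4%, exact 95% interval 91.7 to 96.5) the summit lay between both starts. The 2 nearest genes were neighbours in the annotation at 382 peaks, and 370 peaks had exactly 1 gene on each strand. The peaks fell into 377 distinct pairs of nearest genes, of which 20 held more than 1 member summit. In coding sequence lay 6 of the 398 summits (1.51%) and 40 of the 928 one-strand summits (4.31%), 2 classes that the rule places differently with respect to coding exons.

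The distance between the starts of a head-to-head pair had a median of 505.5 bp (95% interval 467 to 541) and ran from 12 to 1771 bp. The nearer start was a median of 155 bp from the summit and the farther one 327.5 bp, and both starts were within 500 bp at 287 peaks. Neither strand was favoured: 208 of 396 summits (52.5%, 47.5 to 57.5) were nearer the plus-strand start, with 2 ties. Plus and minus are conventional names of the chromosome strands, so an even split was likely in advance. With 0 at the minus-strand start and 1 at the plus-strand start, the summits between starts had a median position of 0.52 (0.48 to 0.55). When the space between starts was cut into 3 equal stretches, 177 of 374 summits (47.3%, 42.2 to 52.5) were in the central one. The rule caps the distance to each start, so it limits how far from the centre of a wide pair a summit can lie.

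**Figure D1:**
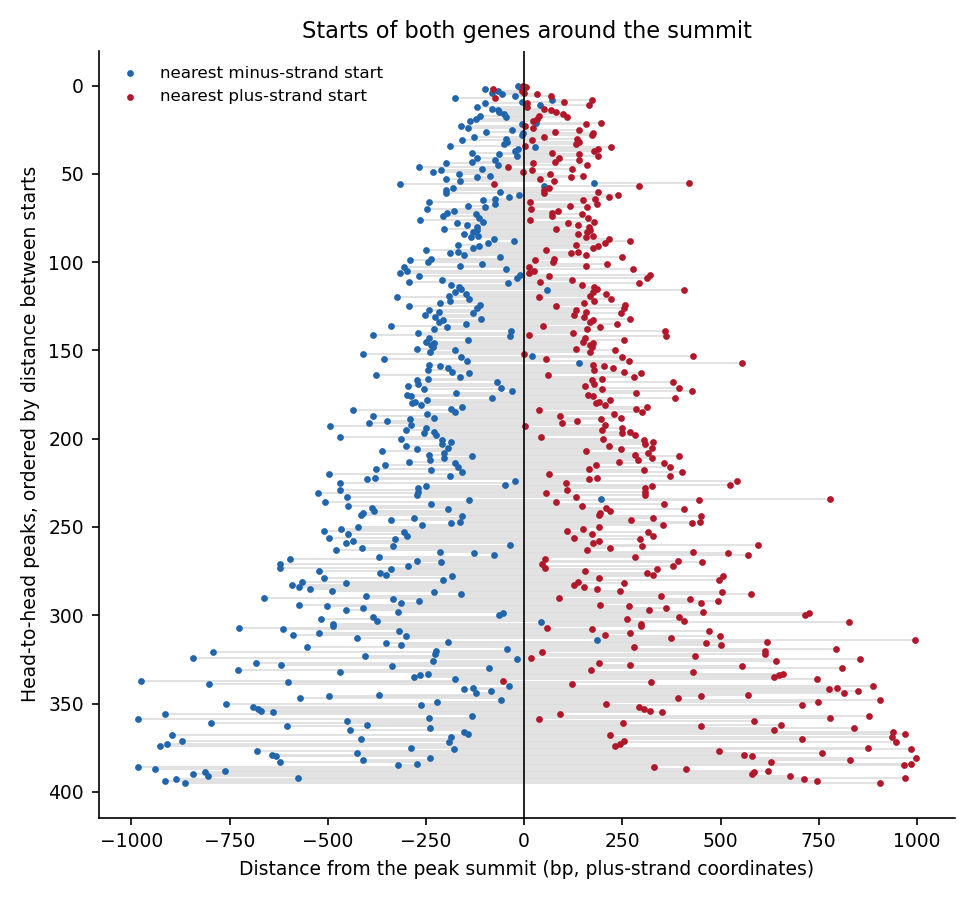
Positions of the nearest plus-strand start (red) and minus-strand start (blue) relative to the summit (0, bp) at the 396 head-to-head peaks, one row per peak, with the shortest distance between starts at the top. Blue points lie mostly to the left and red points to the right of the summit, as in the 374 peaks whose summit was between both starts.

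The tightest pair was F32D8.5/F32D8.14, with starts 12 bp apart and a signal of 171, and the next were F25H9.7/F25H9.6 (15 bp, signal 257) and nbet-1/Y59E9AL.36 (20 bp, signal 121). The widest were F46E10.3/mdh-1 at 1771 bp (signal 129), ipla-6/mif-4 at 1659 bp (signal 602) and rab-5/nmat-2 at 1598 bp (signal 202). Signal did not follow the distance in one direction. Its median was 191 at the 36 peaks whose starts were at most 200 bp apart, 188 at 201 to 400 bp, 215 at 401 to 600 bp, 209 at 601 to 1000 bp and 184 above that, with overlapping 95% intervals. The share of summits between the starts was lowest in the tightest pairs, at 27 of 36 (75%).

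Summit positions mostly held between the samples. The summits of replicates 3 and 4 at the same peak were a median of 15 bp apart (13 to 18, 394 peaks seen in both lists), against 25 bp (23 to 28) at 919 one-strand peaks. The largest shifts were 703 and 709 bp. Each replicate summit is that of its strongest region overlapping the peak, so wider intervals allow larger shifts. One-strand intervals were wider, with a median of 392.5 against 321 bp, and whether the shifts follow width or signal was not tested. The same start was the nearer one in both replicates at 356 of 392 head-to-head peaks (90.8%), and both replicate summits lay between the starts at 358 of 392 (91.3%). Neighbouring member summits can share a replicate region, which then counts more than once.

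Divergent-promoter peaks had higher signal than one-strand peaks in the pooled list and in each sample. The pooled median was 202 (95% interval 186 to 219; range 101 to 1591), against 165 (157 to 172; range 100.004 to 1765) at one-strand peaks and 150 (144 to 156) away from promoters. In replicate 3 the medians were 95.4, 83.5 and 76.4 in the same order of classes, and in replicate 4 they were 115, 98.1 and 90.3. The log2 difference between divergent and one-strand medians was 0.29 in the pooled list, 0.19 in replicate 3 and 0.23 in replicate 4. Each sample thus gave a difference of the same sign. The pooled value is the peak's own signal, while a replicate's value is that of its strongest region overlapping the peak. The sizes of the pooled and replicate differences are therefore not strictly comparable. The intervals cover the counting of peaks only, and peaks of 1 library are not replicates. Every peak had passed the same IDR threshold, which in these lists is a floor on pooled signal of 99.97, so the medians describe peaks above that floor. The log2 difference was 0.13 among the stronger 50% of all peaks and 0.47 over the 4635 strongest pooled regions, a lower floor chosen after the data were seen.

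Of the divergent-promoter peaks, 255 (64.1%, 59.1 to 68.8) were among the stronger 50% of all 3066 peaks, against 469 of 928 one-strand peaks (50.5%, 47.3 to 53.8). In the top 10% the counts were 56 of 398 (14.1%) and 96 of 928 (10.3%), with intervals that overlapped. The divergent intervals had a smaller median width, 321 bp (307 to 339) against 392.5 bp (373 to 420). The upper quartile of width was 464 bp in both classes, and the lower quartile was 245 against 266 bp. Whether the difference in width follows signal was not tested. On each autosome the divergent median was the higher one, at 189 against 180 on I, 203 against 170 on II, 218 against 163 on III, 202 against 156 on IV and 197 against 164 on V. The 95% intervals of the 2 medians were apart on IV (185 to 232 against 146 to 172) and overlapped on I, II, III and V. The 398 peaks fell on I (91), II (62), III (94), IV (74) and V (77). In the central 50% of the chromosomes lay 242 of 398 divergent peaks (60.8%) and 595 of 928 one-strand peaks (64.1%).

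**Figure D2:**
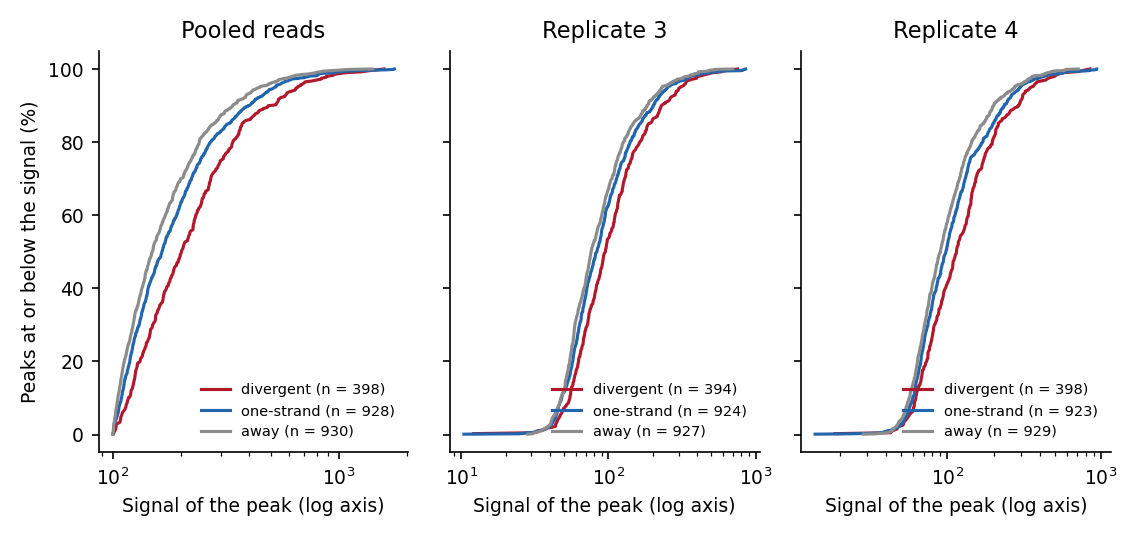
Cumulative share of peaks (%) at or below each signal value (log axis) for divergent-promoter, one-strand and away-from-promoter peaks, in the pooled list and in each replicate's list. The divergent curve lies to the right in all 3 panels, with medians of 202 against 165 and 150 in the pooled list; 394 divergent peaks had an overlapping region in replicate 3 and 398 in replicate 4.

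Across the 394 members seen in both lists, signal in replicates 3 and 4 had a Spearman correlation of 0.874, against 0.831 over 919 one-strand peaks. These points share their libraries, and the values are descriptions. Neighbouring member summits can also take the same region of a replicate, so some regions are counted more than once. At vps-32.1/icd-1, member summits with pooled signals of 532 and 152 both took 215 in replicate 3 and 322 in replicate 4. Replicate 4 was higher at 319 of the 394 peaks, with a median ratio of replicate 4 to replicate 3 of 1.17, the same as at one-strand peaks. Among all autosomal peaks, 79.8% overlapped the 3066 strongest regions of both replicates. The count was 347 of 398 (87.2%, 83.5 to 90.3) for divergent peaks and 742 of 928 (80.0%, 77.2 to 82.5) for one-strand peaks, so the 2 intervals did not overlap. This overlap depends on signal, which was higher at divergent peaks: it was 97.7% for members in the stronger 50% of all peaks. The 2 differences are therefore not separate results.

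Single members departed from that agreement. Some had no overlapping region among the 30000 of replicate 3: 394 of 398 members had one, against 924 of 928 one-strand peaks. In replicate 4 the counts were 398 of 398 and 923 of 928. The correlation and ratios leave out peaks without a region in both lists. At C07H6.2/cux-7 the signal was 197 in replicate 3 and 18.6 in replicate 4, with 406 in the pooled list. Replicate 4's own list has no stronger region at that place. At Y71F9AL.9/rpl-1 it was 12.1 in replicate 3 and 94.8 in replicate 4. This pair has a second member summit, where the values were 87.7 in replicate 3 and the same 94.8 in replicate 4, so the gap at the first depends on which region of replicate 3 overlaps the peak. Among the other members, adr-1/nsf-1 had the highest ratio of replicate 4 to replicate 3, with 37.7 in replicate 3 and 105 in replicate 4. After C07H6.2/cux-7, the lowest ratio was at F25E5.8/ddo-2, with 84.7 in replicate 3 and 45.3 in replicate 4.

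**Figure D3:**
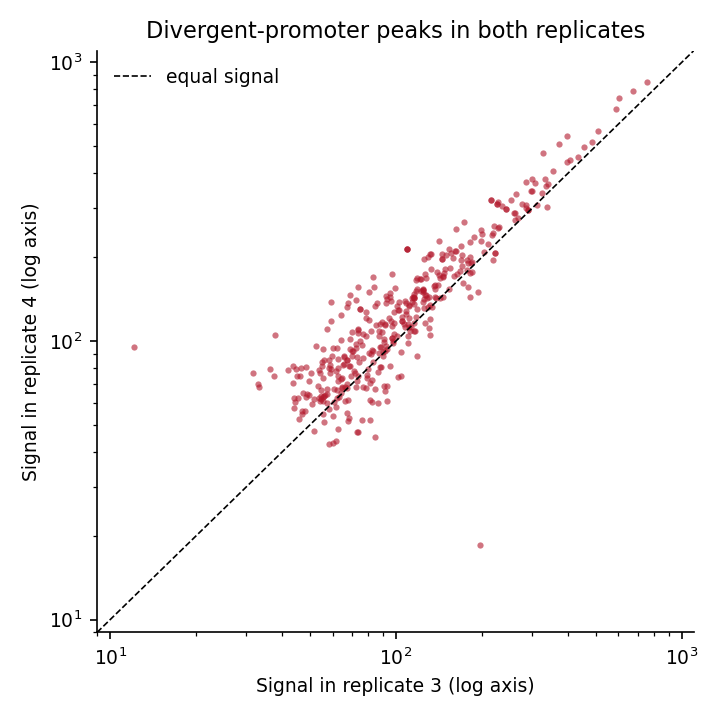
Signal of each divergent-promoter peak in replicate 3 (x, log axis) and replicate 4 (y, log axis), 394 peaks, with the line of equal signal dashed. Most points lie a little above the line (319 of 394), and the 2 points far from it are Y71F9AL.9/rpl-1 on the left and C07H6.2/cux-7 at the bottom. Neighbouring peaks that take the same replicate regions fall on the same point.

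The strongest member was the peak between tasp-1, which encodes a threonine aspartase, and K01G5.10. Its signal was 1591 in the pooled list, 753 in replicate 3 and 848 in replicate 4. The summit stood 58 bp upstream of tasp-1 and 727 bp upstream of K01G5.10. Next came 2 peaks at genes for proteins of the large ribosomal subunit. Y17G9B.5/rpl-20 had 1462 in the pooled list, 674 in replicate 3 and 789 in replicate 4. K11H12.8/rpl-15 had 1348 in the pooled list, 605 in replicate 3 and 746 in replicate 4. At set-16/drr-2, which pairs a histone H3 lysine methyltransferase of the MLL type with a translation initiation factor, the values were 1264, 586 and 682 in the same order, and the summit lay 186 bp from the set-16 start and 160 bp from the drr-2 start. tag-340/nhl-2 followed with 1078, 508 and 566; nhl-2 encodes a TRIM-NHL protein that acts with microRNAs. hsp-60/Y22D7AL.10, at the gene for the mitochondrial chaperonin, had 1001, 485 and 519.

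The other 9 of the 15 strongest members had pooled signals from 711 to 949. They included rps-1/ifet-1 (949), a small-subunit ribosomal protein gene beside a translational repressor gene, and lin-54/rpl-12 (944), which joins a DNA-binding subunit of the DREAM repressor complex to a ribosomal protein. Chaperone genes lay at Y55F3AR.2/cct-8 (882; a subunit of the cytosolic chaperonin), hsp-90/C47E8.4 (879) and dnj-13/F54D5.9 (763; a DnaJ co-chaperone). The others were F54C9.14/iff-2 (840; initiation factor 5A), wip-1/larp-1 (836; larp-1 encodes a La-related RNA-binding protein), hsr-9/rps-19 (800.025) and cls-2/R107.5 (711; cls-2 encodes a microtubule regulator of the CLASP family). In each of these 15 peaks replicate 4 exceeded replicate 3, by 1.05 to 1.45 times. The weakest members were mrpl-35/M01F1.4 (101 pooled; 58.4 in replicate 3 and 42.8 in replicate 4), F53F8.6/F53F8.5 (101) and Y39A3CL.7/pvf-1 (101).

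Seen from the annotation, 363 of 2382 autosomal head-to-head pairs (15.2%, exact 95% interval 13.8 to 16.75) with starts at most 2000 bp apart had a member summit, and these pairs hold 4764 genes. Divergent windows covered 2.22 Mb, or 2.69% of the autosomal territory classed, with 179.5 peaks per Mb. One-strand windows covered 20.2 Mb with 46.0 peaks per Mb, and the sequence away from promoters held 15.5 per Mb. Of the genes in head-to-head pairs, 826 of 4764 (17.3%) had any autosomal IDR summit in their window, against 839 of 12478 other autosomal protein-coding genes (6.72%). A summit in a shared window counts for both genes of a pair.

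The share of pairs with a summit was highest at 201 to 600 bp. It was 36 of 242 (14.9%, 10.6 to 20) for starts at most 200 bp apart, 107 of 451 (23.7%, 19.9 to 27.9) at 201 to 400 bp, 87 of 379 (23.0%, 18.8 to 27.5) at 401 to 600 bp, 100 of 593 (16.9%, 13.9 to 20.1) at 601 to 1000 bp and 33 of 717 (4.60%, 3.19 to 6.40) above that. The windows shared by both genes differ in length between these classes. Per kb of shared window, the pairs with a summit numbered 0.279, 0.340, 0.254, 0.153 and 0.08015 in the same order of distance, so on that scale the tightest pairs stood above those at 401 to 600 bp. By chromosome the share was 22.3% on III, 19.6% on I, 15.7% on IV, 11.6% on II and 10.6% on V; the intervals of III (18.3 to 26.8) and V (8.32 to 13.15) did not overlap. A further 322 pairs had no IDR summit but had a region of the longer pooled list, with a median signal of 48.9.

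The genes at these pairs were read against lists of gene families, with 15.2% of all autosomal genes in head-to-head pairs as the background. In protein synthesis, a summit lay in both windows for 37 of 49 cytoplasmic ribosomal protein genes in such pairs, 10 of 27 mitochondrial ribosomal protein genes, 12 of 29 translation factor genes and 4 of 15 aminoacyl-tRNA synthetase genes. The ribosomal protein peaks ranged from 108 at rpl-17/aps-3 to 1462 at rpl-20, with a median of 191. At 3 peaks both genes encode ribosomal proteins: rpl-24.1/rps-10 (292 pooled; 136 in replicate 3 and 158 in replicate 4), rpl-36/rps-14 (290; 122 in replicate 3 and 167 in replicate 4) and rps-30/rpl-39 (172; 90.0 in replicate 3 and 88.1 in replicate 4). At the other 32 the summit was nearer the ribosomal protein gene in 8 and nearer its partner in the rest. Any tie was counted as nearer the minus-strand gene. The translation factor peaks had a median signal of 341 and included eef-2/clsp-1 (554; elongation factor 2) and rfc-4/eef-1A.1 (372; elongation factor 1 alpha beside a replication factor C subunit).

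For protein folding and turnover, the counts were 19 of 36 chaperone genes, 6 of 22 proteasome genes and 8 of 35 genes of the ubiquitin pathway. rpn-3/hsp-110, a proteasome lid subunit beside a heat shock protein, had a signal of 585 in the pooled list, 275 in replicate 3 and 310.3 in replicate 4. ubc-6/aka-1, at a ubiquitin-conjugating enzyme gene, had 537, 243 and 298 in the same order. For the mitochondrial respiratory chain the count was 11 of 33, led by atp-1/mcrs-1 (541; ATP synthase alpha subunit), cox-6B/Y71H2AM.20 (441; cytochrome oxidase) and mev-1/jmjd-4 (367; succinate dehydrogenase). For the secretory pathway it was 20 of 59, led by trap-3/sec-61.B (705; subunits of the translocon and its associated complex on both strands). For splicing and RNA binding it was 25 of 52, with rsp-1/rsp-2, a pair of SR splicing factors, at 361. For the transcription machinery it was 5 of 19 and for the vacuolar ATPase 2 of 8.

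Chromatin regulators had 15 of 31 genes in such pairs with a summit, and 17 member peaks with a median signal of 389. These included genes for partners of NuRD and of the DREAM complex. nra-2/lin-53, where lin-53 encodes a histone-binding subunit of NuRD, had 646 in the pooled list, 300 in replicate 3 and 344 in replicate 4. lin-35/vps-51, at the retinoblastoma homologue, had 363, 169 and 196 in the same order, and fbxa-90/efl-1, at an E2F homologue, had 340, 164 and 174. htz-1/wapl-1, at the histone H2A.Z gene, had 461, 219 and 244. The lin-35 and htz-1 peaks were named after their values were seen, as were eef-2/clsp-1 and the 3 pairs of ribosomal protein genes.

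Receptor, transcription factor, cuticle, histone and F-box families were near or below the background. The counts were 8 of 247 chemoreceptor genes, 5 of 108 F-box and MATH genes, 3 of 64 histone genes, 3 of 43 nuclear hormone receptor genes, 4 of 39 collagen genes and 2 of 12 homeobox genes. Cell cycle genes (7 of 52) and DNA repair genes (3 of 25) were near it. Single members of these families could still be strong, such as nhr-47/dnj-19 (549), nhr-68/H12C20.7 (530), hex-3/fbxb-85 (579) and ceh-38/malt-1 (447). The partner of nhr-47 encodes a DnaJ protein.

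Taking 12 housekeeping lists as 1, 154 of 398 divergent peaks (38.7%, 33.9 to 43.7) had a gene of these lists, against 109 of 928 one-strand peaks (11.75%, 9.74 to 13.99). A divergent peak has at least 2 genes and so more chances to include one. Counted by pair, 137 of 340 head-to-head pairs with such a gene (40.3%, 35.04 to 45.7) had a member summit, against 226 of 2042 pairs without (11.1%, 9.74 to 12.5). At the 128 peaks with such a gene nearest on 1 strand, the summit was nearer to it in 60 (46.9%, 38.0 to 55.9), with any tie counted as nearer the minus-strand gene. Signal was 205 (184 to 249) with such a gene and 199 (180 to 219) without, with overlapping intervals. At one-strand peaks the medians were 197 (174 to 245) with and 161 (153 to 168) without.

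**Figure D4:**
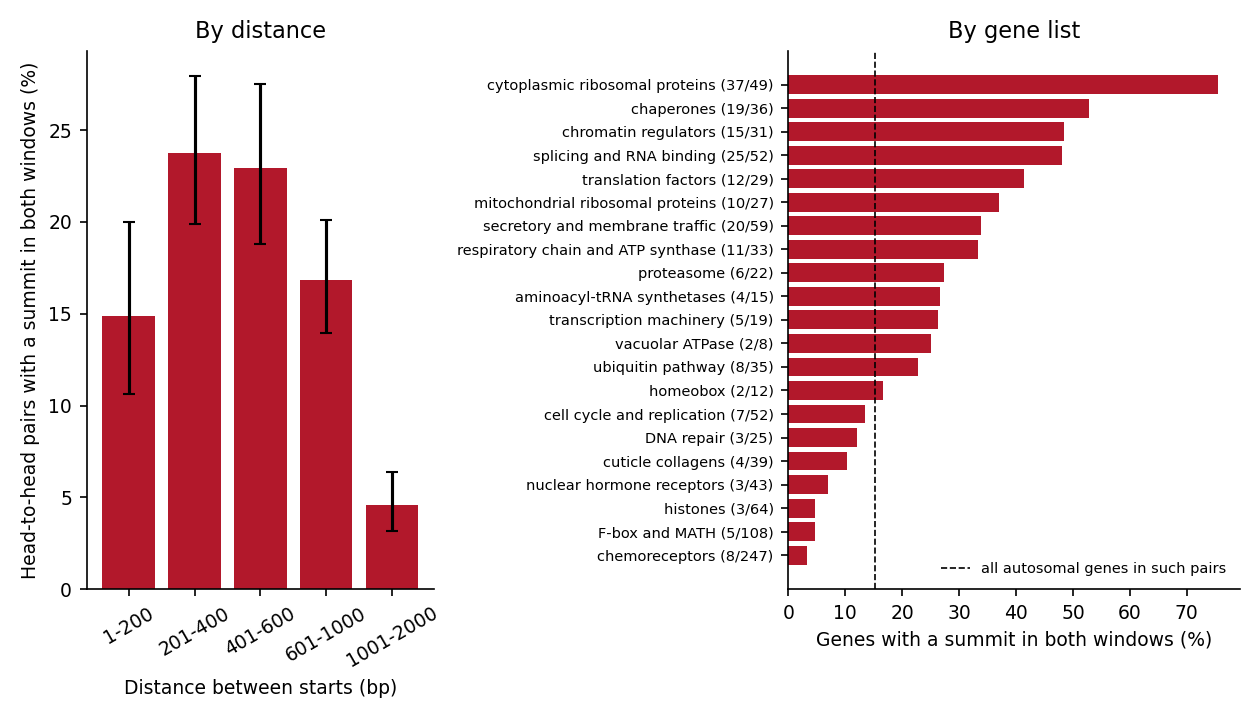
Left, share (%) of autosomal head-to-head gene pairs with a member summit by distance between starts (bp); error bars are exact 95% binomial intervals. Right, share (%) of the genes of each list in such pairs that have a member summit, with counts in parentheses and the background of 15.2% dashed; cytoplasmic ribosomal proteins lead with 37 of 49 and chemoreceptors are last with 8 of 247.

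Sequence around the summits was set against 4 sets of windows of the same length, 100 bp either side. These were one-strand summits, summits away from promoters, flanks 1500 bp from 384 of the divergent summits, and the midpoints of 1335 head-to-head pairs, with starts at most 1000 bp apart, that had no member summit. Midpoint windows were centred on the middle of a pair rather than on a summit. A difference from them therefore mixes having a peak with where the window was centred. GAGAGA, a letter run of the kind bound by GAGA factors in flies, occurred on either strand in 100 of 398 divergent windows (25.1%, 20.9 to 29.7). The shares were 42.1% (38.9 to 45.4) at one-strand summits, 53.01% away from promoters, 11.5% in the flanks and 12.1% (10.4 to 13.9) at the midpoints; over the midpoints of all 1665 such pairs it was 13.4%. CTGCGTCT gave the same order of divergent below one-strand peaks, with 8.04% (5.56 to 11.2) against 16.8% (14.5 to 19.4), 17.5% away from promoters, 0.781% in the flanks and 2.02% at the midpoints. The runs overlap by the letters AGA where the reverse complement of CTGCGTCT follows GAGAGA, as in the set-16 window, and 279 of 398 divergent windows had neither.

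Where present, the runs lay a median of 35.5 bp from the summit for GAGAGA and 20.5 bp for CTGCGTCT. Only runs within 100 bp were searched for, which caps these distances. GAGAGA was on the plus strand of the chromosome alone in 47 windows, on the minus strand alone in 46 and on both in 7. Strand names are a convention, so an even split was likely in advance. Signal was much the same with GAGAGA (206, 169 to 244) and without it (201, 185 to 219). An E-box, CACGTG, was in 5.53% of divergent windows, 10.02% of one-strand windows and 4.05% of midpoints.

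The other letter runs differed in direction. CCGCCC, the core of an SP1-like site, was in 13.8% of divergent windows (10.6 to 17.6), 9.48% of one-strand windows (7.675 to 11.6) and 5.39% of midpoints. TATAAA was in 13.6% of divergent windows (10.4 to 17.3) and 15.6% of one-strand windows, against 29.6% of midpoints (27.15 to 32.1). TGATAA, a site of GATA factors, was in 8.79% of divergent windows (6.20 to 12.0), 17.8% of one-strand windows (15.4 to 20.4), 18.5% of flanks and 20.2% of midpoints. Runs of 8 T were in 17.8% of divergent windows, 13.8% of one-strand windows and 24.5% of midpoints. CCAAT (30.7%, against 28.45% and 30.6%) and the E2F-like TTTCGCGC (3.02%, against 3.13% and 1.57%) differed by less than their intervals from one-strand windows, and so did TAATTA (7.04%, against 7.33%), which stood at 13.8% of midpoints. Over the midpoints of all 1665 such pairs, with or without a summit, TATAAA stood at 27.7%, TGATAA at 19.5% and TAATTA at 13.4%. Centring was not separated from having a peak. CCAAT was in 44.5% of flanks (39.5 to 49.7), above its share at the summits (26.2 to 35.4). Flank shares of TATAAA (16.7%), runs of 8 T (18.5%) and TAATTA (6.77%) were inside the intervals at the summits. Those of CCGCCC (2.60%), CACGTG (2.60%) and TTTCGCGC (1.56%) were below them. The flanks lay beyond both nearest starts, which were at most 997 bp from the summit, and so differ from promoters in kind of sequence.

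Base composition had a sharp shape at these summits. Median G+C over the window was 40.3% (39.8 to 41.3) at divergent summits, 41.8% (40.8 to 42.3) at one-strand summits and 32.8% (32.3 to 33.3) at midpoints without a summit. In bins of 20 bp, mean G+C at divergent summits was 50.2% just left of the summit and 49.9% just right of it, and 30.5% and 29.9% in the bins 130 bp to either side. At one-strand summits the same bins had 47.4% and 46.6% at the summit and 36.7% and 35.6% to the sides. At midpoints without a summit they had 34.0% and 34.4% in the centre and 34.2% and 34.6% to the sides. Midpoints are not aligned on a summit, and averaging would flatten a local rise in G+C. Their profile therefore cannot show whether such a rise exists at these pairs. The low flanks stood on both sides of the divergent summits.

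**Figure D5:**
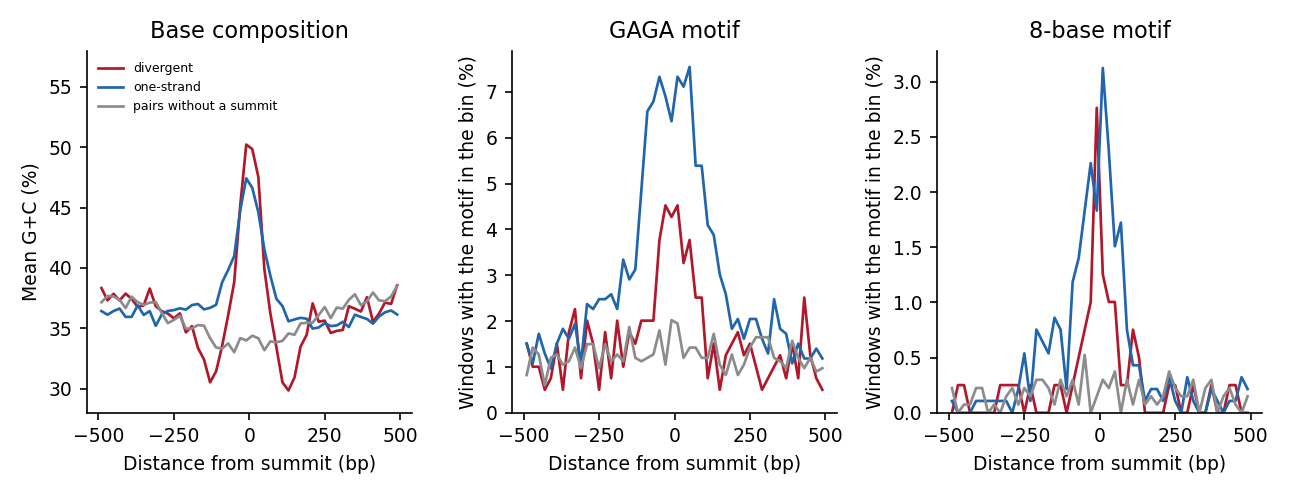
Mean G+C content (left, %) and share (%) of windows with the GAGA motif (centre, GAGAGA) or the 8-base motif (right, CTGCGTCT) in 20 bp bins by distance (bp) from the summit of divergent and one-strand peaks, or from the midpoint of head-to-head pairs without a member summit. G+C at divergent summits reached 50.2% and dropped to about 30.5% at 130 bp. GAGAGA was less frequent at divergent than at one-strand peaks in each bin within 100 bp, and CTGCGTCT in each but the bin just left of the summit (2.76% of divergent against 1.83% of one-strand windows).

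The peaks just inside and just outside each limit of the rule had these values. The member nearest to a tRNA gene was mdt-22/clpp-1, 1012 bp away with a signal of 206, and the nearest peak shut out was cpr-9/gcy-33, 139 bp away with a signal of 103. The lowest member of the IDR list, mrpl-35/M01F1.4, had 101, and the first region below the list, at hda-1/ril-1, had 99.2; hda-1 encodes a histone deacetylase. At the upstream limit, nol-58/zip-4 was inside at 997 bp and cey-2/xrep-4 outside at 1008 bp. At the downstream limit, F41F3.1/col-139 was inside at 195 bp and ctps-1/pus-1 outside at 292 bp. Windows 100 bp longer at each end would have added 20 peaks.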

How the data were processed

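The 2 samples and their peak lists on ce11 were used as deposited; each list gives, per region, a signal value and a −log10 q-value set by the authors' caller, and a summit. Per the labels and file listings, regions were called in each sample and in the pooled samples, and the IDR list was drawn from these. For the caller, aligner, IDR threshold and scaling of the signal, values were not given in the sources used here. The deposited −log10 q-value was 4.13 in every member and ranked nothing. Lists per sample and pooled hold 30000 regions each, and the 398 members came from the 3066 IDR regions. The 2901 distinct intervals can hold several summits.

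Summits were placed on the Ensembl release 115 annotation of WBcel235, the assembly of ce11, and sequences were read from the RefSeq copy of it. A replicate's value is its strongest region overlapping the peak by at least 1 bp. Shares have exact (Clopper-Pearson) and medians exact order-statistic 95% intervals; both cover counting error only, and neither the spread between animals nor dependence between neighbouring peaks. With 1 group no test was run. Python 3.11.15, numpy 2.4.6, pandas 2.3.3 and scipy 1.17.1 were used, and placing and counting were tested on simulated data.

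The members, the 21 gene lists, the 10 motifs and the alternatives were chosen with earlier results of these data known. Named genes are those at the 15 strongest members, the 3 strongest of each list with at least 3 peaks, the 3 highest and lowest replicate ratios, the 3 lowest signals and the 3 shortest and longest gaps; others are chosen after their values were seen.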

Additional observations from a re-analysis of the deposited data

How the results depend on the processing

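Of 98 values, from 10 results under up to 13 alternatives, 20 moved and none reversed. The other 78 stayed within the reported share's interval or, for the log2 difference, within 0.024 of the pooled value. For the number of members the limit was 1.5 times of 398 (286 with the narrower and 557 with the wider windows). The 5 values with a tRNA distance of 1000 bp equalled the reported ones, since no member lay that close. With the stronger 50% of IDR peaks there were 255 members, 21.9% of autosomal peaks, with a log2 signal difference of 0.13, summits at 9.91% of pairs and 97.7% overlap with both replicates' strongest regions; a higher floor leaves fewer peaks by construction. Windows of 500 and 100 bp gave 12.2% of autosomal peaks, a difference of 0.25 and 11.1% of pairs. Windows of 2000 and 200 bp gave 23.7%, 18.1% of pairs and GAGAGA at 30.9%. GAGAGA within 50 bp was at 16.6%, and the middle 60% of the chromosomes held 71.1%. Without replicate 3 or 4 (the other's own list) the log2 difference was 0.24 to 0.26 and the share between both starts 91.1 to 92.4%. As many pooled regions as the 4635 of the ce10 IDR list were also taken, a choice made after the data were seen. They gave 13.8%, a difference of 0.47, 18.7% of pairs and 71.7% overlap. A lower floor adds regions, and so pairs with a summit, by construction. The overlap was still scored against the 3066 strongest regions of each replicate, which limits it for a longer list. Why the share of autosomal peaks and the log2 difference moved was not tested. The limit for the log2 difference is the SD of the 2 replicates' values, 0.024, set around the pooled 0.29. The replicates' own differences, 0.19 and 0.23, lie outside that band, so it does not measure how well 0.29 is reproduced. No paired analysis was possible because both samples form 1 group. Depth is unknown, so no limit of detection could be set, and a pair without a peak is not shown to lack binding.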

Other observations

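Short sequence words were counted at the summits after the motif results were seen. Among 22559 different 8-base words within 100 bp of a divergent summit, each counted with its reverse complement, the 10 with the largest excess of share over the midpoints of pairs without a summit were listed, with no test. AAACGCGC was in 42 of 398 divergent windows (10.6%, exact 95% interval 7.71 to 14), 5.82% of one-strand windows (4.40 to 7.525), 1.08% of windows away from promoters and 1.42% of midpoints. GCGAGACC was in 38 divergent windows (9.55%, 6.845 to 12.9), 3.13% of one-strand windows and 2.70% of midpoints. GCGCTCCA was in 35 (8.79%), against 3.34% and 2.25%, and CTGGCGCA in 29 (7.29%), against 3.13% and 0.0749%. Apart from the words that overlap CTGCGTCT, 8 words remained; at least 1 of them was in 158 of 398 divergent windows (39.7%, 34.9 to 44.7), 193 of 928 one-strand windows (20.8%), 65 of 930 windows away from promoters (6.99%) and 132 of 1335 midpoints (9.89%). The words were picked for this difference from the midpoints, whose windows were not centred on a summit.

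Small RNA genes were seldom beside these peaks: a snoRNA start lay within 300 bp of 6 divergent summits (1.51%) and 29 one-strand summits (3.13%), and a microRNA start beside 3 and 3.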
